A study of Mus musculus with 2 samples.

Results

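Rif1, Trim28, Rest and Zfp281 are nuclear proteins with roles in silencing and genome maintenance in mouse embryonic stem cells, and the occupancy of their own promoter regions by Tcf3 was examined here. Their probes were all non-control spots whose annotated gene name was one of the 4 symbols, alone or in a hyphen-joined pair. This gave 123 of 474380 spots and 4 of 17029 annotated genes. Rif1 had 23 probes, Trim28 32, Rest 30 and Zfp281 38, and all of them lay on the first of the 2 promoter arrays (array 1).

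The study was a ChIP-chip experiment in the mouse embryonic stem cell line E14, grown without feeder cells. Formaldehyde-fixed chromatin, sheared to 500 bp on average, was immunoprecipitated (IP) for Tcf3. The amplified IP DNA, labelled with Cy5, was hybridised against input DNA labelled with Cy3. Both channels came from unmodified E14 cells and each gene was on 1 array, so no gene had a replicate, and no control antibody or cells without Tcf3 were analysed here. DNA occupancy carries no expression markers, so the cell type was taken from the labels. Tcf3 here is the protein now also called Tcf7l1, not the E-protein of the same symbol.

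Tcf3 belongs to the Tcf/Lef family, the DNA-binding end of the Wnt pathway. Without Wnt signal it represses its targets together with Groucho corepressors, and in embryonic stem cells it restrains the self-renewal network. Rif1 acts at DNA breaks and at telomeres and sets the timing of replication. Trim28 (also KAP1) is the corepressor that zinc finger proteins with a KRAB domain bring to retroelements, where it recruits histone methylation and heterochromatin proteins. Rest binds neuronal genes and keeps them silent outside neurons. Zfp281 is a zinc finger factor that binds GC-rich promoters and works with the NuRD corepressor complex.

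Each value below is log2(IP/input) of 1 spot, from the processed intensities, centred on the median of its array, so that 0 is the median probe. A set joins a probe to the closest probe on either side, up to 1000 bp away, and its mean is given with the SD over its probes. That SD is scatter along the DNA and not an error between experiments. Calling needed a set mean with a normal upper tail below 0.001. It also needed the probe itself below 0.001 beside a neighbour below 0.1, or any 2 probes in the set below 0.005. The scale came from values below the median. These probabilities served only as a calling rule.

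Rif1 and Trim28 carried runs of high probes, Rest carried scattered high probes, and Zfp281 had a low rise over its start site. Of the 4 genes, 3 were called with all spots, namely Rif1, Trim28 and Rest, where 15.5% of 16887 genes were called. The same 3 of 4 were called on measured spots alone, again against 15.5% of 16317 genes. On array 1, which carries all 4 genes, the share was higher, 25.3% of genes with all spots and 18.4% on measured spots. IP ratios on this array rose with the GC content of the probe above about 40% GC. Once that trend was subtracted from the measured spots, 2 of 4 were called, Rif1 and Trim28, against 14.9% of genes on both arrays and 21.3% on array 1. The Trim28 call then came only from probes that it shares with another gene. Over the 123 probes the values ran from −1.46 to 3.48 with a median of 0.15. Values above 1 were found for 24 of them (19.5%), against 16.1% of all probes of the array. In all, 13 of the 123 probes were called with all spots (10.6%), against 2.45% of the probes of array 1. Of the 13, 1 was a spot not above background. On measured spots 12 probes were called, and 7 with the GC trend also subtracted. No array share of probes is given for those counts. Of the 123 spots, 23 were not above background in at least 1 channel and hold a substitute value.

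**Figure D1:**
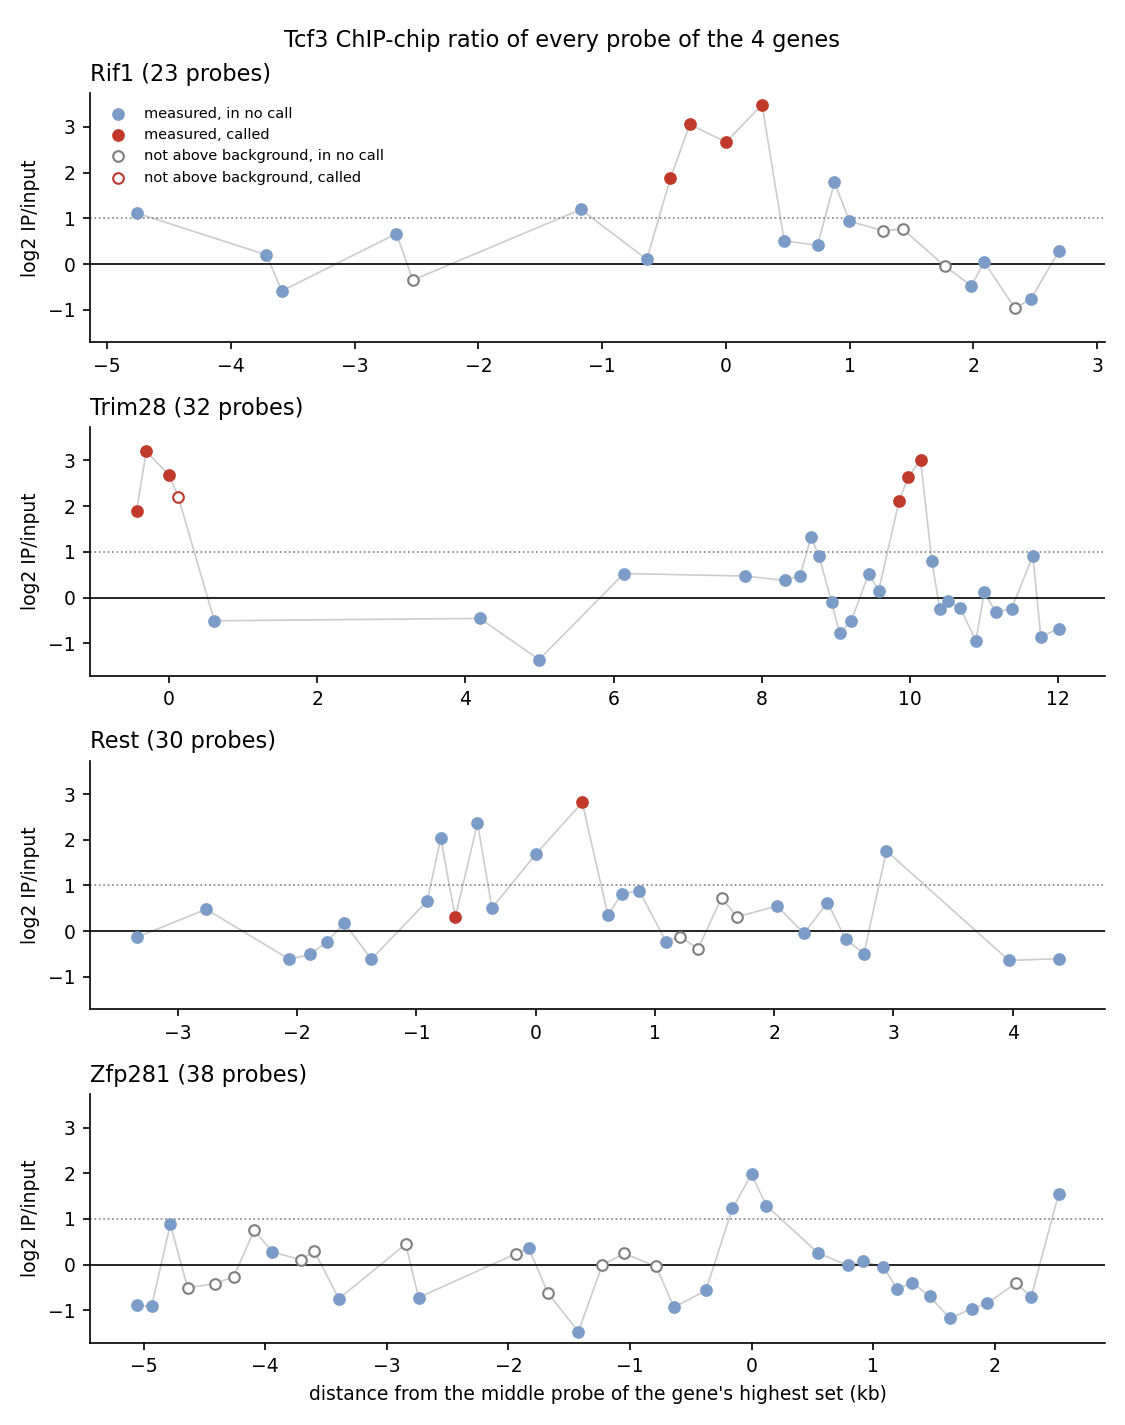
Log2 IP/input of every probe of Rif1, Trim28, Rest and Zfp281 against its distance from the middle probe of the gene's highest set, in kb. Red points are called probes, open points were not above background, and the dotted line marks 1; Rif1 shows 1 run of 4 called probes, Trim28 runs of 4 and 3, Rest 2 single called probes and Zfp281 none.

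The highest signal of the 4 genes was at Rif1, where 4 neighbouring probes across 787 bp were all called. The 4 probe sequences are shown because they span the whole run; positions are the array's own, on a mouse build not given in the sources used here.
Rif1 probe 8, chr2:52079305-52079353: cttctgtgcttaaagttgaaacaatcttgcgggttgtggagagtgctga
Rif1 probe 9, chr2:52079460-52079510: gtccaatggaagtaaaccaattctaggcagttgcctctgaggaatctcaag
Rif1 probe 10, chr2:52079751-52079803: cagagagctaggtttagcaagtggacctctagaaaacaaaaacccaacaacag
Rif1 probe 11, chr2:52080047-52080091: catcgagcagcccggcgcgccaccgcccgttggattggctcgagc

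Along the run the log2 values were 1.88, 3.06, 2.67 and 3.48. The spots flanking the run were at 0.10 on one side and 0.51 on the other, so the signal rose and ended within 1 probe on each side. The last 3 probes made the highest set, chr2:52079460-52080091, at 3.07 ± 0.41 (SD, n = 3 probes), or 8.40-fold IP over input. By this set Rif1 ranked 14 of 16887 genes, and 9 of 8490 genes on array 1. Of the 3086 called regions on both arrays, 0.389% had a set mean as high.

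The Rif1 run was read from bright spots. IP intensity was 5751, 8170, 4009 and 19073, where the array median was 323. Input intensity over the same probes was 1847, 1159.9, 745 and 2014, above the array median of 466. The error that the scanner software deposited for each log ratio was between 0.26 and 0.35 on the log2 scale. Carried to the set mean with spots taken as independent, it came to 0.20, beside 0.24 for the mean from the scatter between the 3 probes.

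In GC content, 3 of the 4 Rif1 probes were moderate, at 44.9%, 45.1% and 43.4%, and the last was at 73.3%. Subtracting the GC trend left 2.02, 3.20, 2.94 and 2.03, and all 4 stayed called. Among measured probes of the same GC content on array 1, 0.178% were as high as probe 9 and 0.378% as high as probe 10, but 3.93% were as high as the GC-rich probe 11. The highest set was then 2.72 ± 0.61 (SD, n = 3 probes), at rank 60 of 16317 genes. Outside the run, the Rif1 window held 3 more probes above 1, each alone: 1.12, 1.20 and 1.79. The last of these, in DNA of 66.7% GC, came to 0.68 with the trend subtracted. The 16 Rif1 probes at or below 1 had a median of 0.15.

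Trim28 carried 2 separate called runs of nearly equal height, one far upstream of its start site and one just downstream. The start site was placed on the array by matching probes to the RefSeq promoter table (GRCm38.p6), from which Trim28 starts at chr7:11610733 in array coordinates on the plus strand. The upstream run is made of probes that the array assigns to both Zfp499 and Trim28. Zfp499 is the older symbol of Zbtb45, a zinc finger gene with a BTB domain, which lies on the opposite strand with its start 14.3 kb away, so that the genes point away from each other. The 4 shared probes are shown because this run carries the highest Trim28 value.
Trim28 and Zbtb45 probe 1, chr7:11600794-11600846: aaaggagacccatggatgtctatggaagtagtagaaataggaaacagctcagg
Trim28 and Zbtb45 probe 2, chr7:11600924-11600980: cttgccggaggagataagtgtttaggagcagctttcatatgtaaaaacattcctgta
Trim28 and Zbtb45 probe 3, chr7:11601230-11601289: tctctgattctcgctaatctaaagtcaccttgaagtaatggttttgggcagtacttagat
Trim28 and Zbtb45 probe 4, chr7:11601354-11601413: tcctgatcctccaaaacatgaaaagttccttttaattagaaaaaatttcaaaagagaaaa

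The upstream run held 1.90, 3.20, 2.68 and 2.20 over 620 bp. It sat in AT-rich DNA, with a mean GC content of 37.2%, where the array trend is low. The fourth value came from a spot above background in neither channel (172.62 in IP, 44.31 in input), so it is not a measured ratio. The other 3 had IP intensities of 4037, 15520.3 and 3937 and deposited errors of 0.28, 0.35 and 0.33. The highest set, chr7:11600924-11601413, averaged 2.69 ± 0.50 (SD, n = 3 probes). It ranked 76 of 16887 genes, and 61 of 8490 genes on array 1. On measured spots alone the highest set was made of probes 1 to 3 and averaged 2.63 ± 0.65.

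Subtracting the GC trend raised the upstream run. Its 3 measured probes came to 2.17, 3.52 and 3.06, a set mean of 2.92 ± 0.69 (SD, n = 3 probes), and Trim28 moved to rank 22 of 16317 genes. Among measured probes of the same GC content, 0.130% were as high as probe 2. With minus for upstream, the run lay at −9913 to −9350 bp from the Trim28 start and at −4387 to −4950 bp from the Zbtb45 start, nearer to Zbtb45 at every probe. The assignment to Trim28 is thus the array's. Since both genes share these probes, Zbtb45 had the identical set mean, and the array cannot tell which of them the signal concerns. The remaining 3 shared probes were low, at −0.51, −0.45 and −1.36.

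The downstream run was named for Trim28 alone. Its 3 probes lay 378, 501 and 668 bp after the start site, over 335 bp, with values of 2.11, 2.63 and 3.01 and a set mean of 2.58 ± 0.45 (SD, n = 3 probes). The last and highest is shown because it is also the brightest called Trim28 spot, at 18912 in IP and 2771 in input.
Trim28 probe 21, chr7:11611379-11611423: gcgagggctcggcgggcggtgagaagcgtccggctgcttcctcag

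Here the GC content was 66.7%, 77.8% and 73.3%, the range in which the median probe of the array is itself above 1. With the GC trend subtracted the 3 values became 1.00, 1.01 and 1.56, a mean of 1.19 ± 0.32 (SD, n = 3 probes), and the call was lost. Between 8.62% and 17.5% of measured probes of the same GC content were as high as these. The pair of Trim28 runs, nearly level on the raw scale, therefore differed after the trend was subtracted, 2.92 for the upstream set against 1.19 for the downstream set. The high signal did not include the start site itself. The probe at −32 bp had 0.52 and the next, at 102 bp, had 0.15. The low probe at 102 bp and the downstream run lie beyond the end of the promoter sequence below. The promoter is shown because it holds the low probe at −32 bp. It runs from 250 bases before to 50 after the RefSeq start (GRCm38.p6, chr7:13023902-13024201, plus strand), and capitals mark the probe with 0.52.
Trim28 promoter: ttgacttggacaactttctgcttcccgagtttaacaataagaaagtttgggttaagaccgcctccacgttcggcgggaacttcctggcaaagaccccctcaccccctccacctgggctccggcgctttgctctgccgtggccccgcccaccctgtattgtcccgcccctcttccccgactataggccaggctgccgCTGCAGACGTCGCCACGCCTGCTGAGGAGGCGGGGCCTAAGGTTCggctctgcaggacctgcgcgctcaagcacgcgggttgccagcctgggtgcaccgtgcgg

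**Figure D2:**
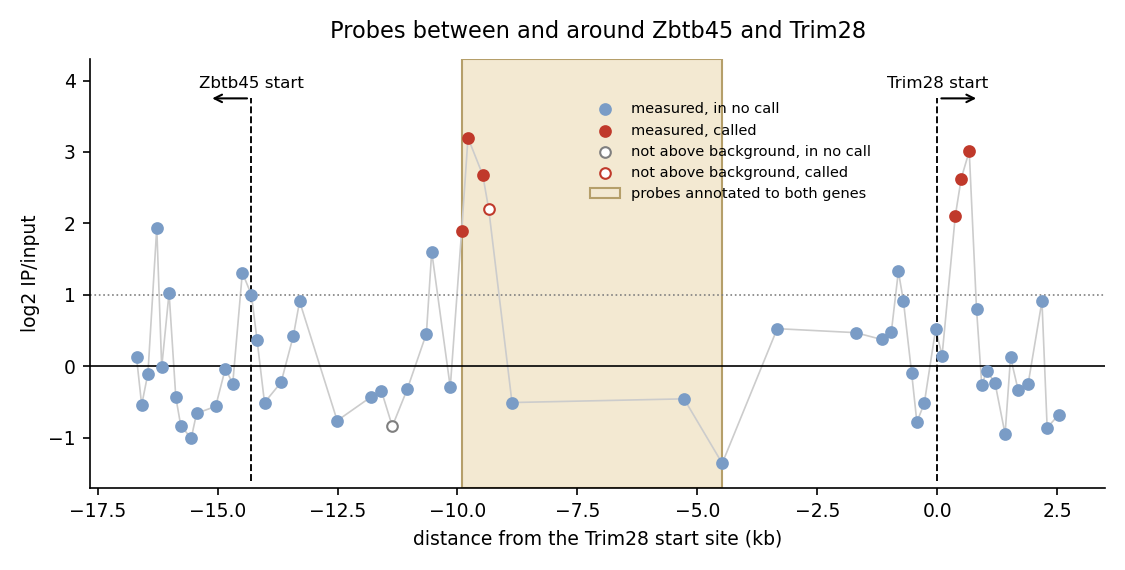
Log2 IP/input of the 60 probes named for Trim28, Zbtb45 or both, against distance from the Trim28 start site in kb; dashed lines are the RefSeq start sites with arrows along transcription, and shading marks the span of the 7 shared probes. With all spots, the called probes (red) form 1 run within the shared span and 1 run of 3 just after the Trim28 start, while none of the 28 probes named for Zbtb45 alone was called.

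Zbtb45's own 28 probes ran from −1.01 to 1.94 with a median of −0.23, and 0 of them were called with all spots. With the GC trend subtracted, 4 probes of Zbtb45 were called against 3 of Trim28, and those of Trim28 are all shared. A call then fell on a probe named for Zbtb45 alone. Near the shared run, Zbtb45's own probe chr7:11600166-11600225, at 38.3% GC, read 1.61 and came to 1.98 after the subtraction. At its start the probe from −27 to 17 had 1.00, and the probe from −144 to −100 had 0.37. Elsewhere within 20 kb, the array names Chmp2a, Slc27a5, Ube2m and Zfp98 also had 0 called probes with all spots.

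Rest was called with all spots, but on thin support. Its high values did not form a run: 2.03, then 0.30, 2.37 and 0.50, then 1.68 and 2.82 on consecutive probes. The sequences of the 3 probes above 2 are shown because the Rest call rests on them.
Rest probe 9, chr5:77196518-77196574: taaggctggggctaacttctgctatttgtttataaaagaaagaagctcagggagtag
Rest probe 11, chr5:77196832-77196876: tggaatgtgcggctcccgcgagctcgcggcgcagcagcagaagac
Rest probe 14, chr5:77197711-77197755: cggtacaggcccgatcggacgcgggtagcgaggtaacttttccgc

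Probe 11 read 2.37 and probe 14 read 2.82, and both had dim input, 85.43 and 106.38, against the array median of 466. Their deposited errors were 1.37 and 0.94 on the log2 scale, several times those of the Rif1 run. Probe 9, at 2.03, was better measured, with an input of 688 and an error of 0.33. One of the 2 called Rest probes, probe 10, read only 0.30 itself and passed through its neighbours on both sides. The highest Rest set, chr5:77196953-77197755, joined 0.50, 1.68 and 2.82 to a mean of 1.67 ± 1.16 (SD, n = 3 probes). It ranked 2593 of 16887 genes, so 15.3% of genes had a higher set, and 2003 of 8490 genes on array 1. The middle probe of that set was itself not called; the 2 called Rest probes, 10 and 14, had set means of 1.57 and 1.62.

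The Rest probes differed in GC content. The set just described averaged 70.4% GC, and with the trend subtracted it came to 0.40 ± 1.37 (SD, n = 3 probes). The highest Rest set was then another one, chr5:77195934-77196574, at 1.01 ± 1.30 (SD, n = 3 probes), with 0 called probes and 37.1% of genes higher. It joined −0.24, 0.92 and 2.35, the last being probe 9, at 40.4% GC. Of measured probes of that GC content, 1.55% were as high as probe 9, and the next probe on its other side stood at −1.15. A second lone probe, at 36.7% GC and 1.76, came to 2.09. No Rest set with such a probe passed the calling rule after the subtraction. The other Rest probes, 25 at or below 1, had a median of −0.05.

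Zfp281 was not called with all spots, although its highest set covered its start site. The upper tail of that set mean was below 0.001, so the call failed on the conditions for single probes. The set, chr1:136512784-136513110, held 1.23, 1.97 and 1.29, at −187, −30 and 92 bp from the start, and averaged 1.50 ± 0.41 (SD, n = 3 probes). The promoter (RefSeq, GRCm38.p6, chr1:136624651-136624950, plus strand) is shown because 2 of these 3 probes, in capitals, lie inside it.
Zfp281 promoter: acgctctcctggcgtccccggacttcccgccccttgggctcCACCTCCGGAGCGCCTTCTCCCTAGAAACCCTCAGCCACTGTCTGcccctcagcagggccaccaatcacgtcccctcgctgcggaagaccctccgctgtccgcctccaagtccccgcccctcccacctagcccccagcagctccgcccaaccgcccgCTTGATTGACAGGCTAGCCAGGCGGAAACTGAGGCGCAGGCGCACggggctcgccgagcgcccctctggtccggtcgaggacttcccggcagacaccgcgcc

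The 3 Zfp281 spots were measured well above background, with deposited errors of 0.27, 0.32 and 0.45. All 3 adjacent probes stood above 1 and the flanking probes fell to −0.56 and 0.25, so the rise was contiguous but low. In rank the gene was 4292 of 16887, with 25.4% of genes higher, and 2721 of 8490 on array 1. After the GC trend was subtracted the values were 0.41, 1.15 and 1.56, a mean of 1.04 ± 0.58 (SD, n = 3 probes), and 35.0% of genes were higher. Upstream of this set no Zfp281 probe exceeded 0.89. The 34 Zfp281 probes at or below 1 had a median of −0.40, the lowest of the 4 genes. Of the 38 spots 13 were not above background, which limits what could be measured there.

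By highest set mean the order was Rif1 (3.07), Trim28 (2.69), Rest (1.67) and Zfp281 (1.50). Neighbours in this order overlapped in the values of their probes, from 2.67 to 3.48 for Rif1, 2.20 to 3.20 for Trim28, 0.50 to 2.82 for Rest and 1.23 to 1.97 for Zfp281. Rif1 did not overlap with Zfp281, but these are neighbouring probes of sets picked as highest and not replicates. The low end of Trim28 is the spot that was not above background, and on measured spots its highest set ran from 1.94 to 3.24, overlapping with Zfp281 at 1.27 to 2.01. With the GC trend subtracted Trim28 (2.92) and Rif1 (2.72) stayed close to each other. Zfp281 (1.04) and Rest (1.01) were near the median gene, at 0.85 over both arrays and 0.94 on array 1. The Trim28 values come from sets of probes shared with Zbtb45. Probes named for Trim28 alone reached 2.58 with all spots but only 1.19, without a call, with the trend subtracted. No test between genes was possible with 1 array each.

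**Figure D3:**
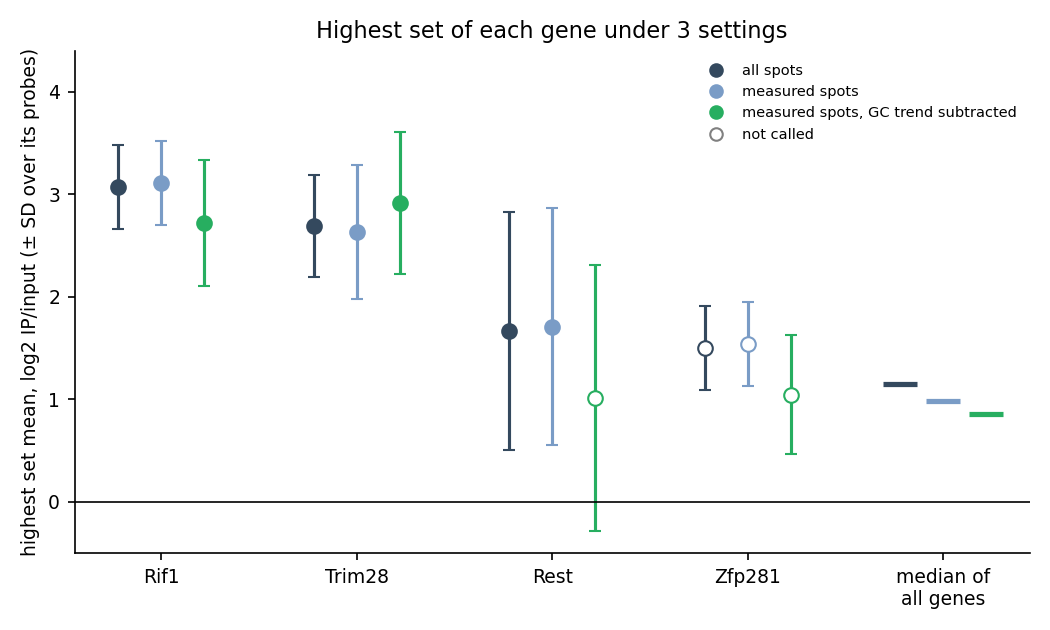
Highest set mean of each gene as log2 IP/input in 3 settings, namely all spots, measured spots alone, and measured spots minus the GC trend; bars are the SD over the 2 or 3 probes of the set and open symbols are sets of genes not called. Rif1 and Trim28 stay at 2.63 or above in all 3 settings, Trim28 by probes shared with Zbtb45. With the GC trend subtracted, Rest (1.01, from another set of probes) and Zfp281 (1.04) lie near the median of all genes. That median is 0.85 over both arrays and 0.94 on array 1.

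**Figure D4:**
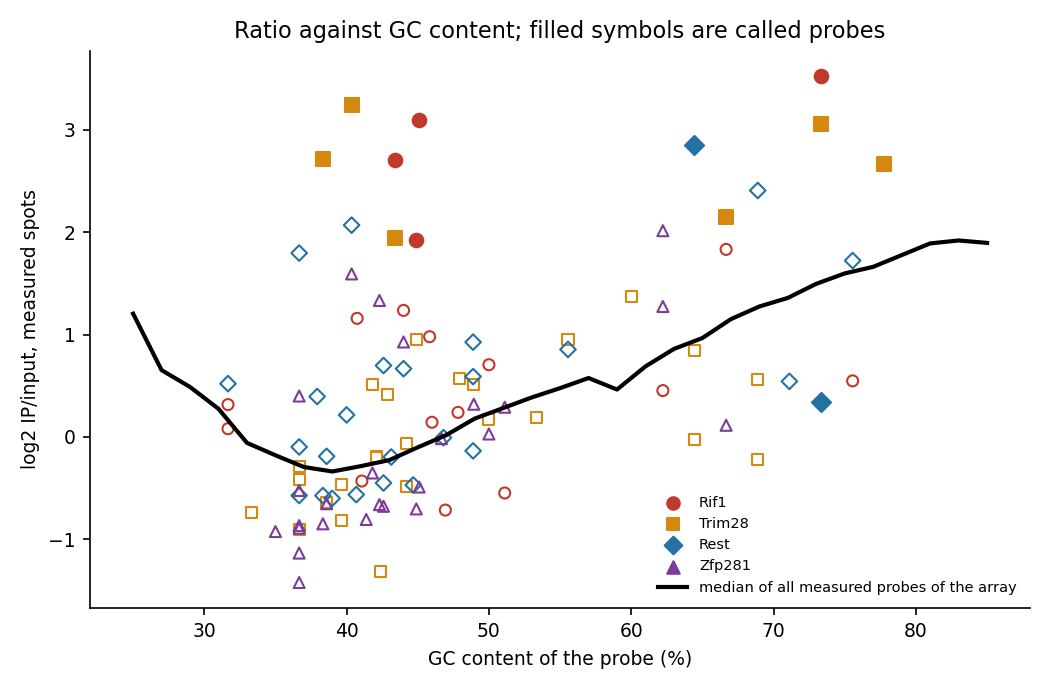
Log2 IP/input of the measured probes of the 4 genes against probe GC content in percent, centred on measured spots, with the median of all measured probes of array 1 as a line; filled symbols are called probes. Called Rif1 and Trim28 probes below 50% GC stand 2.02 to 3.52 above the trend, and those above 60% GC stand 1.00 to 2.03 above it.

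Within each gene too the ratio and GC content were positively correlated, weakly to moderately. This is a description over all its probes on 1 array, substitute values included. Spearman's rho was 0.23 over 23 Rif1 probes, 0.43 over 32 Trim28 probes, 0.32 over 30 Rest probes and 0.26 over 38 Zfp281 probes. Whether amplification of the IP DNA contributes to the GC trend was not tested.

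The core letters of the Tcf/Lef site were searched in every probe, on both strands, as CTTTGAA and its variants, which are CTTTGAT with another last base, CTTTGTA with another sixth base and CTTTGTT with both changed. Of the 123 probes 8 held such a word (6.50%), against 5.69% of all 474380 probes and 5.77% of all called probes. None of the 13 called probes of the 4 genes held one. The 8 word-bearing probes ran from −1.46 to 1.55 with a median of −0.10. The probes below are shown because they carry the word (capitals) nearest to a high signal or in the highest of the 8 values.
Rif1 probe 7, chr2:52079113-52079162: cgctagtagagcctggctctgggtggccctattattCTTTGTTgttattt
Trim28 probe 12, chr7:11609902-11609946: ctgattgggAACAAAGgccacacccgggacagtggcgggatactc
Zfp281 probe 38, chr1:136515461-136515517: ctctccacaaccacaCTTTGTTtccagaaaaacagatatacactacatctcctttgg

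Rif1 probe 7 is the flanking probe next to the called run and read 0.10. Trim28 probe 12 lies at −809 bp from the start and read 1.33, while Zfp281 probe 38, the last probe of its window, read 1.55. The promoters of Trim28, Zfp281 and Zbtb45 held 0 words, where 16.9% of 32851 RefSeq promoters of the same length held at least 1. Probes covered only 15.9% of the bases of the Rif1 window, 13.3% for Trim28, 20.5% for Rest and 27.6% for Zfp281, and the letters between them were not read.

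Partner genes of the 4 repressors were then set beside them. Across 5 lists of partners and related zinc finger genes, the calling rule took 12 of 59 genes on the arrays when all spots were used and 6 of 59 after the GC trend was subtracted. That is to be read against 15.5% and 14.9% of all genes. Only Atf7ip, Trp53bp1 and Rbbp7 were called in both settings. The highest set of a gene need not be the same probes in each setting. The median highest set mean of the 59 was 1.15, and that of all genes was 1.15. The comparison is uneven between arrays, since 25.3% of genes of array 1 but 5.55% of those of array 2 were called, and 30 of the 59 were on array 1.

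Among 16 Rif1 partners, which act in break repair, at telomeres or with protein phosphatase, 4 passed the rule on all spots and 2 after the GC step. Only Trp53bp1 was in both counts. The shares of all genes were 15.5% and 14.9%. On array 1, which held 10 of the 16, they were 25.3% and 21.3%. Trp53bp1, which brings Rif1 to broken DNA, was highest at 2.57 ± 1.06 (SD, n = 3 probes). It was called in every one of the 3 settings, with 2.80 ± 1.05 after the trend was subtracted. Pot1a, a protein of the telomere end, had 1.96 ± 0.40 from 3 spots that were not above background and its highest set on measured spots was 0.55, with no call. The list median was 1.30 with all spots and 0.71 with the trend subtracted.

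Among 13 silencing partners of Trim28, 8 of them on array 1, 3 passed the rule on all spots and 2 after the GC step. Only Atf7ip was in both counts. The shares of all genes were again 15.5% and 14.9%, and 25.3% and 21.3% on array 1. Cbx3, a heterochromatin protein, reached 2.09 ± 0.18 (SD, n = 3 probes), and its highest set after the subtraction was 1.38, with no call. Trim24, a relative of Trim28, reached 1.93 ± 1.01, and 1.23 after the subtraction, also without a call. Atf7ip, a partner of the histone methyltransferase Setdb1, was called at 1.64 ± 0.05 from 2 spots, 1 of them not above background. It was called again at 1.62 ± 1.30 with the trend subtracted, but not on measured spots without that step (1.80 ± 2.03). The list median was 1.09.

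Among 15 corepressors of Rest, 7 of them on array 1, 3 were called with all spots, and 0 once the trend was subtracted. Of all genes 15.5% and 14.9% were called, and 25.3% and 21.3% on array 1. Ehmt1, a histone methyltransferase, had 2.06 ± 0.26 (SD, n = 2 probes) in DNA of 77.8% GC, and its highest set with the trend subtracted was 0.66. Sin3b, a scaffold of histone deacetylases, had 1.74 ± 1.01 from 2 spots, 1 not above background, and was not called on measured spots (1.01). Their median was 1.30 with all spots and 0.86 with the trend subtracted, beside 0.85 for all genes.

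Of 12 genes around Zfp281, the NuRD complex and Tet enzymes, 5 were on array 1. The rule took 1 of the 12 on all spots and 1 after the GC step, Rbbp7 in both. It took 15.5% and 14.9% of all genes. Rbbp7, a histone-binding subunit of NuRD and other complexes, had the highest set of all the partner genes, 3.15 ± 0.41 (SD, n = 2 probes) on array 2, and 2.97 ± 1.30 with the trend subtracted. Mbd3, another NuRD subunit, had 1.50 ± 1.14, called on measured spots only. Of 6 other zinc finger factors, Yy1 was called at 1.74 ± 1.23 and not with the trend subtracted, where its highest set was 1.07. Zfx had 1.52 ± 0.05 from 2 spots not above background and was not called.

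Of pluripotency factors the arrays held 16, of which 7 were called with all spots, 11 on measured spots and 9 with the trend subtracted. The shares of all genes were 15.5%, 15.5% and 14.9%, and on array 1, which held 9 of the 16, 25.3%, 18.4% and 21.3%. The list medians were 1.69, 1.73 and 1.69, beside 1.15, 0.98 and 0.85 for all genes, and no difference between lists was tested. This list was chosen with earlier results of these arrays known and is no independent evidence. Klf2 (2.83 ± 1.09) and Sox2 (2.22 ± 0.57) were highest, and Pou5f1, Tbx3, Sall4 and Utf1 were also called both with all spots and with the trend subtracted, at 1.50, 1.97, 1.67 and 1.95 with all spots. With all spots Rif1 lay above all 16 and Trim28 above 15 of them, Klf2 being the exception. With the trend subtracted the order turned: Trim28 (2.92) and Klf2 (2.90) were nearly level and Rif1 (2.72) lay below both. That Trim28 value belongs to probes shared with Zbtb45, and probes named for Trim28 alone reached only 1.19, without a call.

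**Figure D5:**
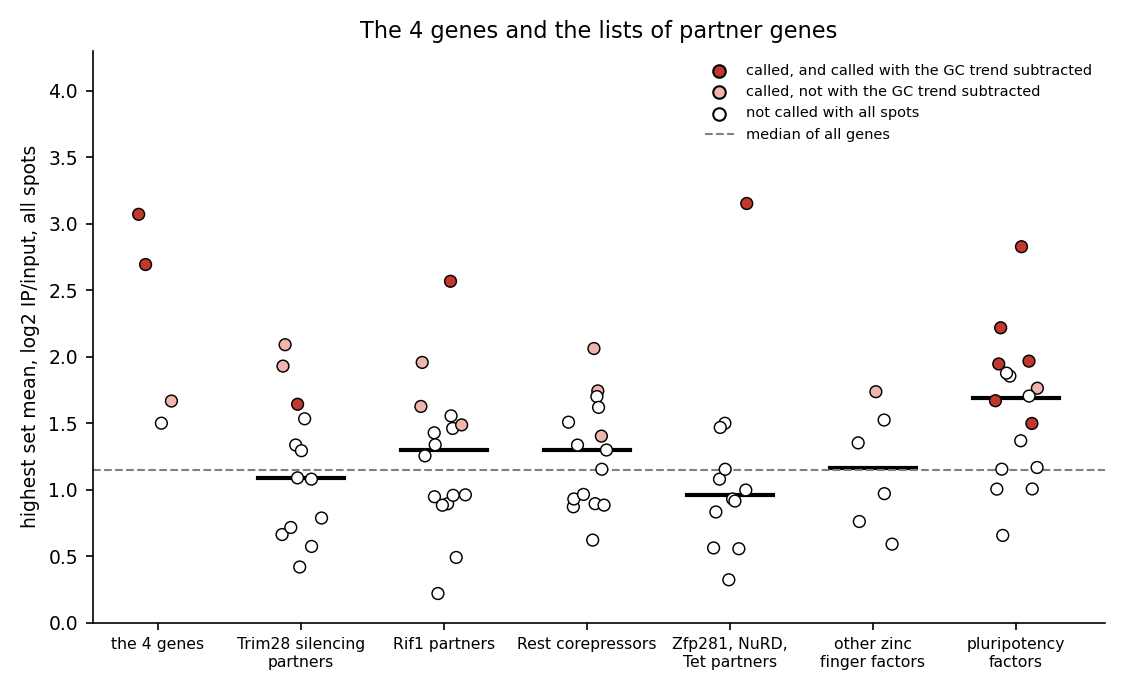
Highest set mean, as log2 IP/input with all spots, of the 4 genes and of each gene on the lists; dark points were called with all spots and with the GC trend subtracted, pale points were called with all spots but lost the call when the trend was subtracted, bars are list medians and the dashed line is the median of all genes (1.15). The medians of the partner lists lie between 0.96 and 1.30, and that of the pluripotency factors is 1.69.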

How the data were processed

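Scanner files of 2 two-colour promoter arrays with different probes were used. The deposited processed intensities (Cy5 IP, Cy3 input) had been background-subtracted and dye-normalised; per the file headers, the software was Agilent Feature Extraction 9.1.1.1. As deposited, the log10 ratio (red over green) served as an alternative, and its deposited error, put on the log2 scale, as the error of a spot. Spots not above background hold a substitute value in those files. The number of arrays limits the precision.

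Log2 ratios were centred per array over non-control spots without non-uniform spots. The calling rule follows the neighbourhood model named in the labels, on scales of 0.72 (array 1) and 0.78 (array 2). It was run on simulated independent normal noise with planted regions. The simulation had no GC trend and no substitute values, so it cannot speak to false calls in GC-rich DNA. The GC trend was the median of measured spots in bins of 2% GC. Array names were updated through the RefSeq table: 12589 matched by symbol, 3940 by an older symbol, and 568 did not match. Promoters of 2 of the 4 genes were matched. Alternatives included limma's normexp correction. Python 3.11.15 with numpy 2.4.6, pandas 2.3.3 and scipy 1.17.1, and limma 3.58.1 under R 4.3.3 were used.

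The genes, lists and tests were chosen with earlier results of these data known. Genes named were the 4, Zbtb45, the 2 highest of each list, and list genes called both with all spots and with the GC trend subtracted.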

Additional observations from a re-analysis of the deposited data

How the results depend on the processing

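Rif1 was called in 11 of 11 settings, with its highest set mean between 2.31 and 3.11. Trim28 was called in 13 of 14, between 1.19 and 2.92; the exception kept only probes named for Trim28 alone with the GC trend subtracted (1.19). Rest was called in 9 of 11 settings and not with the GC trend subtracted (1.01) or, in a setting added after seeing the data, with the scale taken from set means (1.67). Zfp281 was called in 2 of 11, under normexp (1.39) and once the intensity trend was removed (1.22), settings in which 54.4% and 61.2% of all genes were called. The number of all genes called was 1516 with the log10 ratio column, 9187 with normexp and 10343 with the intensity trend subtracted, against 2611. The log10 column is 0 where no ratio was measured. For the other changes the cause was not tested.

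No paired analysis was possible because each gene lies on 1 array, and for the same reason leaving out an array gives no value. Without a second array the values have no error between experiments. Signal over background was the other limit: 30.7% of IP spots of array 1 were not above background, and 13 of 38 at Zfp281. Words of the Tcf/Lef site were read only inside probes.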

Other observations

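Lone probes above 1 with low neighbours were found in several windows. At Rest a probe of 36.7% GC read 1.76 (IP 2148, input 751), between −0.49 and −0.64. Among measured probes of its GC content, 3.95% were as high. At Zfp281 the last probe of the window, 2496 bp after the start, read 1.55 with a neighbour at −0.70, and DNA beyond it was not covered by probes of this gene. At Zbtb45 the highest of the gene's own probes read 1.94 and was not called. It lay in DNA of 71.1% GC and came to 0.62 with the trend subtracted. At Rif1 the first probe of the window read 1.12, with a deposited error of 1.04. Single spots of this kind have no second measurement on these arrays.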
